A study of Homo sapiens with 8 samples.

Results

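Prostaglandins are lipid signals made from arachidonic acid, and the 10 genes described here encode the main steps of their synthesis, sensing and removal: PTGS1, PTGS2, PTGES, PTGES2, PTGES3, PTGIS, PTGER2, PTGER4, PTGFR and HPGD. They were chosen by gene symbol from a list of the pathway. No measured value enters the rule, but the choice was made with earlier results of these data known. All 10 were found among the 19479 genes that the 2 expression tables of the study share. RNA was sequenced from AC16, an established human line that derives from the fusion of ventricular heart muscle cells with fibroblasts and that divides in culture. The 8 libraries form 4 groups of 2: cells kept at 5 mM glucose (replicates 1 and 3), cells moved from 5 to 50 mM over the last 24 h with 45 mM extra D-glucose (replicates 1 and 2), cells kept at 25 mM (replicates 1 and 3), and cells moved from 25 to 50 mM over the same time with 25 mM extra D-glucose (replicates 2 and 3). All cultures shared serum-containing DMEM, and the maintenance glucose was held for at least 3 passages. The study set each rise against its own maintenance group, and no group controls for osmolarity. Replicates are technical in the series' own account. The p-values therefore measure only the spread between libraries. The maintenance glucose cannot be told apart from the table or the culture history that goes with it.

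Prostaglandin synthesis starts when a phospholipase frees arachidonic acid from membranes. The cyclooxygenases PTGS1 (COX-1, usually made at a steady level) and PTGS2 (COX-2, induced by cytokines, growth factors and stress) convert it to prostaglandin H2. Terminal synthases then turn that intermediate into prostaglandin E2 (PTGES, PTGES2 and PTGES3) or prostacyclin (PTGIS). Receptors of the G protein-coupled class read the products: PTGER2 (EP2) and PTGER4 (EP4) bind prostaglandin E2 and raise cyclic AMP, and PTGFR (FP) binds prostaglandin F2α and raises calcium. HPGD starts the breakdown of prostaglandins. In the heart, prostaglandins act on vascular tone, on inflammation and on growth of cardiomyocytes and fibroblasts.

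Levels are given as RPKM, reads scaled to gene length and to library depth, with each gene's length as recovered from the values. Most recovered lengths behave as coding lengths: 83.7% of 13487 genes with reads in all 8 libraries had a length that is a multiple of 3, against 33.3% of whole numbers. The libraries held 21538898 to 27372851 reads, so 3 reads, taken here as the floor of detection, equal 0.0604 to 0.0767 RPKM for PTGS2. In bulk samples fewer cells making a transcript and less of it per cell cannot be told apart. The transcripts that define cardiomyocytes were low or at 0: of 12 such markers in the tables only ACTN2 reached 1 RPKM, in 1 library, and MYL2 and NKX2-5 were at 0 throughout. TTN was low in all libraries, at 0.256 to 0.350 RPKM. All 12 fibroblast markers passed 1 RPKM, and some differed with maintenance glucose without overlap. FAP (96.8 to 110.8 RPKM in cells kept at 5 mM, 42.7 to 56.0 RPKM at 25 mM), FN1, VIM and PDGFRA were lower in cells kept at 25 mM. COL1A1 (962.7 to 1153 and 1347 to 1634 RPKM), COL3A1, DCN and THY1 were higher there. Markers of some other cell types also differed with maintenance glucose, in both directions. The summed level of 9 macrophage and blood markers was 3.64 to 3.93 RPKM in the 4 libraries kept at 5 mM and 1.27 to 2.18 RPKM in the 4 kept at 25 mM, with HBA1 at 0. The summed level of 6 smooth muscle markers was 1008 to 1501 RPKM and 553.9 to 917.4 RPKM, in the same order, and most of it was TAGLN (972.3 to 1457 and 519.3 to 876.1 RPKM). ACTA2 ran the same way, at 22.3 to 23.7 and 6.71 to 9.69 RPKM, while CNN1 (11.1 to 17.2 and 24.6 to 28.2 RPKM) and MYH11 (0.557 to 0.661 and 0.797 to 0.882 RPKM) were higher in cells kept at 25 mM. The summed level of 7 endothelial markers was 4.55 to 5.94 RPKM and 3.96 to 4.67 RPKM, with CDH5 at 0. Most of that sum was TEK, which overlapped (2.500 to 4.05 and 3.655 to 4.38 RPKM), while PECAM1 was at 0.659 to 0.927 and at most 0.0367 RPKM. KDR was at 0.677 to 0.942 and 0.127 to 0.177 RPKM. Among the blood markers CSF1R was at 1.239 to 1.497 and 0.360 to 0.454 RPKM and CD14 at 2.01 to 2.33 and 0.568 to 1.501 RPKM, while the leukocyte marker PTPRC was higher in cells kept at 25 mM, at 0.0856 to 0.130 and 0.136 to 0.214 RPKM. The smooth muscle sum also differed with the rise to 50 mM. It was 1008 to 1051 RPKM at 5 mM and 1427 to 1501 RPKM at 5 to 50 mM. In cells from 25 mM it was 553.9 to 578.5 RPKM before and 903.0 to 917.4 RPKM after the rise. The part of all these markers in the results below was not tested.

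The promoters of the members that differ most between the cultures are shown first, and whether their letters go with the levels was not tested. RefSeq (GRCh38.p14) has promoter entries for 9 of the 10 genes, and PTGIS has none in the table used. The 250 bases before the start site are printed 5′ to 3′ for the 2 cyclooxygenases, of which PTGS1 has 2 annotated starts, for PTGES and for PTGER2, the member called higher in cells kept at 25 mM. Capitals mark matches to the TATA box sequence TATAAA, the GC box sequence GGGCGG, the letters CGTCA (core of the cyclic AMP response element), a pattern like an NF-kB site (GGG, any pair of bases, T, any pair of bases, CC) and TTNNGCAA (a pattern like a C/EBP site), on either strand, where N is any base.
PTGS2, chr1:186680424-186680673, minus strand: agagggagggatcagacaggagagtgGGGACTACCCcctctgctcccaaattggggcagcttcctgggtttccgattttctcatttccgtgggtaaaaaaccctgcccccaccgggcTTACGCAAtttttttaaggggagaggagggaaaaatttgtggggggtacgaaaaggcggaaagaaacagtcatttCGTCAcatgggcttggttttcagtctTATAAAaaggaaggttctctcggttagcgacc
PTGS1 first start, chr9:122370283-122370532, plus strand: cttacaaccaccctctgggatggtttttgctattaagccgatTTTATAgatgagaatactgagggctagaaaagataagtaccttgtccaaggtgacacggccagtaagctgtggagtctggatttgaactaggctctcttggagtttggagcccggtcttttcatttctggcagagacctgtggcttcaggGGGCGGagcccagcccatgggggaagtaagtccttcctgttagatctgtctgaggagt
PTGS1 second start, chr9:122375052-122375301, plus strand: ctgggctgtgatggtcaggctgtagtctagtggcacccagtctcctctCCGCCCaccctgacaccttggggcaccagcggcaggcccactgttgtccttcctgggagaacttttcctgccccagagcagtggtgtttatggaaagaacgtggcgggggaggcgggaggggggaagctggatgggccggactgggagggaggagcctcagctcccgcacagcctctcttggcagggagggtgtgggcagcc
PTGES, chr9:129753043-129753292, minus strand: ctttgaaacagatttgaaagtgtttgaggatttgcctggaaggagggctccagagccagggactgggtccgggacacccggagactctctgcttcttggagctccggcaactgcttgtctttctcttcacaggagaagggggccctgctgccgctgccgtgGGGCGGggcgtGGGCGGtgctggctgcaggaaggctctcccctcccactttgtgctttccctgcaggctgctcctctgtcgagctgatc
PTGER2, chr14:52314062-52314311, plus strand: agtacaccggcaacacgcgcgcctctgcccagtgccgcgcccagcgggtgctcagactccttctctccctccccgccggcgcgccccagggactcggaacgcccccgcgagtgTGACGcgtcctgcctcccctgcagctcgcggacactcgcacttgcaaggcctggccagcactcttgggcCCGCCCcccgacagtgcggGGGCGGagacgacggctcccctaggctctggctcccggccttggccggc

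Positions are counted from the start site, with -1 the last base before it. The PTGS2 stretch held TATAAA at -32 to -27, CGTCA at -58 to -54, TTACGCAA at -133 to -126 and GGGACTACCC at -224 to -215, and no GGGCGG. A second CGTCA lay at 25 to 29 after its start. The first PTGS1 start had GGGCGG at -58 to -53 and the letters of a TATA box only on the other strand, read as TTTATA at -208 to -203. The second PTGS1 start, which lies inside the gene, had a single GC box, read as CCGCCC at -202 to -197. PTGES had GGGCGG at -89 to -84 and at -78 to -73, with no match to the TATA box, the cyclic AMP response core or the NF-kB-like pattern. PTGER2 had GC boxes at -68 to -63 and -49 to -44 and a CGTCA core on the other strand, read as TGACG at -137 to -133. Members not printed also held such letters. PTGES3 had CGTCA at -21 to -17 and an NF-kB-like match on the other strand at -44 to -35. An NF-kB-like match lay at 6 to 15 after the first PTGES2 start and at -244 to -235 in PTGER4. HPGD had CGTCA at -77 to -73 of its second start, and PTGFR had neither pattern. Over 35116 promoter windows of 300 bases, TATAAA was found in 11.53%, GGGCGG in 44.95%, CGTCA in 24.55%, the NF-kB-like pattern in 22.02% and TTNNGCAA in 10.46%. A match is a description of the letters and shows no binding.

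Both cyclooxygenases were far lower in cells kept at 25 mM than in cells kept at 5 mM. PTGS2 (Entrez 5743, chr1:186671791-186680423 in GRCh38.p14) stood at 4.12 and 4.71 RPKM in the 5 mM libraries and at 0.248 and 0.304 RPKM in the 25 mM libraries, from 161 and 234 reads against 12 and 15. After the rise to 50 mM it stood at 7.69 and 6.66 RPKM in cells from 5 mM and at 0.448 and 0.397 RPKM in cells from 25 mM, from 326 and 281 reads against 20 and 18. Every library kept at 5 mM was thus above every library kept at 25 mM, whatever the final glucose. The ratio of reads between the 5 mM and 25 mM groups was 16.1 (95% interval 10.9 to 24.8, for counting error only). On the log2(RPKM + 1) scale, which understates changes of low genes, PTGS2 was lower at 25 mM by a log2 difference of -2.08 (SE 0.11, adjusted p = 9.66e-06, limma). Between the groups at 50 mM the ratio was 17.0 (read interval 12.2 to 24.3) and the log2 difference -2.52 (SE 0.11, adjusted p = 3.36e-06, limma). With a pseudocount of 0.1 RPKM in place of 1 the PTGS2 differences were -3.59 and -3.80.

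PTGS1 (Entrez 5742, chr9:122370533-122395703) showed the same order at a lower level. It measured 0.944 RPKM in each 5 mM library, from 37 and 47 reads, and 1.11 and 1.16 RPKM in the 5 to 50 mM libraries, from 47 and 49 reads. In the 25 mM libraries it was at 0.0412 and 0.0405 RPKM, 2 reads each, and in the 25 to 50 mM libraries at 0.0224 and 0.0440 RPKM, 1 and 2 reads. All 4 of those values lie below the 3-read floor, so PTGS1 was at the limit of detection in cells kept at 25 mM. The read ratio was 23.1 (95% interval 8.70 to 86.8) between the maintenance groups and 34.1 (95% interval 11.3 to 168) between the groups at 50 mM. The log2(RPKM + 1) differences were -0.90 (SE 0.09, adjusted p = 0.000255, limma) and -1.05 (SE 0.09, adjusted p = 0.000117, limma). These shrank to -0.40 and -0.60 with quantile normalization, still past the threshold (adjusted p = 0.0241 and 0.00341). PTGS1 passed the filter of 1 RPKM in 2 libraries only through the 5 to 50 mM group, and PTGS2 only through the libraries kept at 5 mM.

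**Figure D1:**
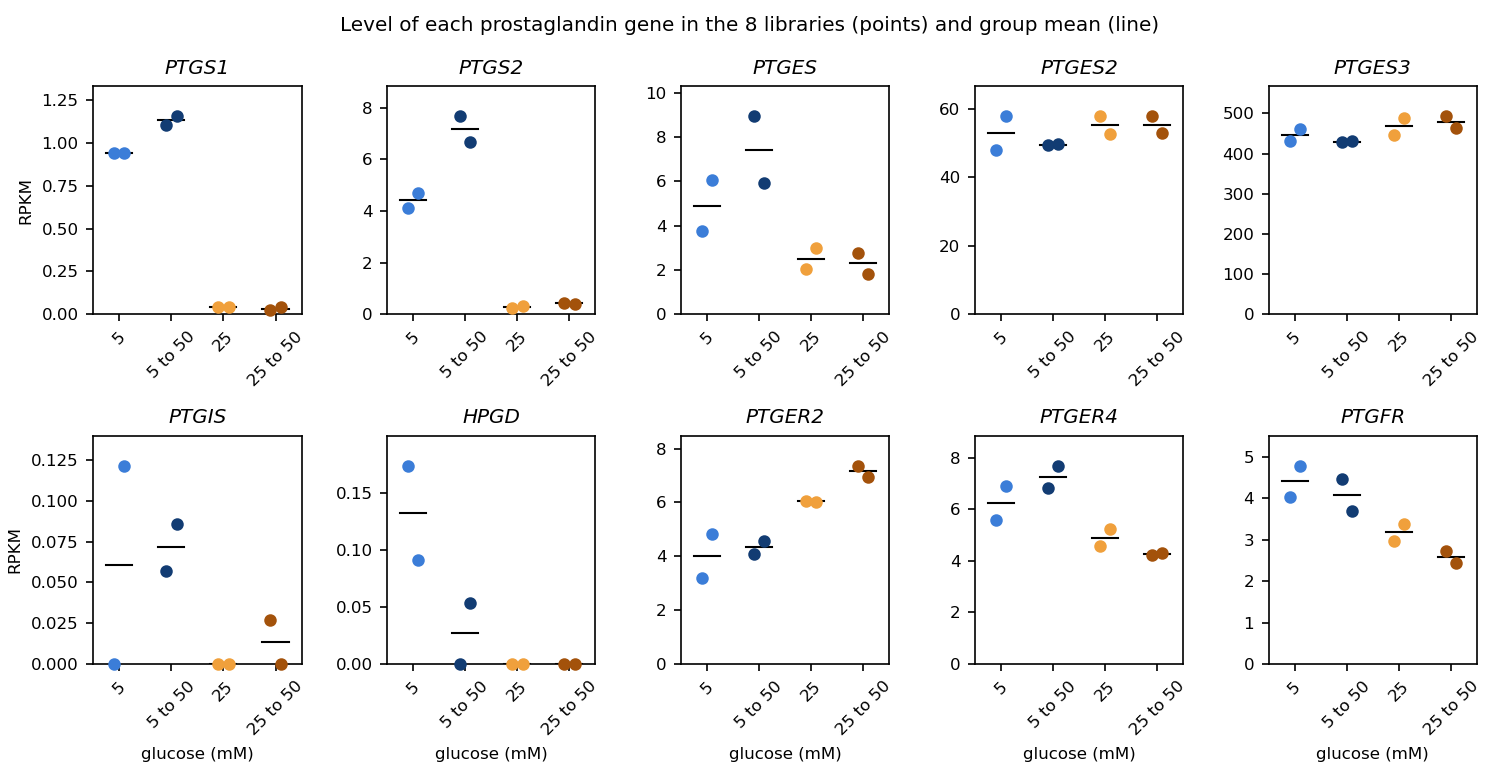
RPKM of each of the 10 genes (linear vertical axes from 0, 1 panel per gene with its own scale) in the 8 libraries, ordered by group. Points are libraries and short bars are group means, and the 4 PTGS2 and 4 PTGS1 libraries kept at 5 mM stand above all 4 kept at 25 mM, while PTGES2 stays within 47.8 to 57.9 RPKM and PTGES3 within 427.8 to 494.0 RPKM.

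The response of the cyclooxygenases to 24 h at 50 mM was small beside the gap between the maintenance groups. From 5 to 50 mM, PTGS2 went from 4.41 ± 0.418 to 7.18 ± 0.727 RPKM (SD, n = 2), and the groups did not overlap. The share of all genes that did not overlap between groups was not counted for any comparison. For PTGS2 the lack of overlap is thus a description only. The read ratio was 1.61 (95% interval 1.42 to 1.84). The limma estimate of 0.59 (SE 0.12) did not pass after adjustment over all genes (adjusted p = 0.192). Leaving out 1 library at a time gave estimates from 0.50 to 0.69. Of these fits it passed only without replicate 3 of the 5 mM group (0.67), which leaves a lone library in that group. In the joint fit of all 8 libraries it fell just short (adjusted p = 0.0515, limma). From 25 to 50 mM, PTGS2 did not reach the filter and was not tested. Its values of 0.248 and 0.304 RPKM before and 0.448 and 0.397 RPKM after also did not overlap, with 27 reads before and 38 after, a ratio of 1.53 (95% interval 0.909 to 2.60). The ratios of mean RPKM after to before were thus 1.63 from 5 mM and 1.53 from 25 mM. The difference between the responses was 0.44 on the log2(RPKM + 1) scale (SE 0.15, adjusted p = 0.748, limma). It was 0.21 with a pseudocount of 0.1 and 0.09 with voom on reads, so the size of this difference rests on the scale. PTGS1 had a log2 value of 0.13 from 5 to 50 mM (SE 0.11, adjusted p = 0.756, limma) and was too low to test from 25 mM.

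Among the synthases, PTGES was the member whose level differed with maintenance glucose, and PTGES2 and PTGES3 were the most abundant of the 10 genes. PTGES (Entrez 9536, chr9:129738349-129753042) is the inducible, membrane-bound prostaglandin E synthase that is often expressed together with PTGS2. It measured 3.74 and 6.05 RPKM at 5 mM, 8.96 and 5.91 RPKM at 5 to 50 mM, 2.04 and 2.97 RPKM at 25 mM and 2.75 and 1.83 RPKM at 25 to 50 mM, from 21 to 96 reads a library. All libraries kept at 5 mM were above all those kept at 25 mM. Between the groups at 50 mM the mean RPKM was 3.25-fold higher in cells from 5 mM (read interval 2.37 to 4.54), and the log2 difference was -1.35 (SE 0.26, adjusted p = 0.00452, limma). Between the maintenance groups the ratio was 1.96 and the log2 difference -0.74 (SE 0.26, adjusted p = 0.0559, limma), short of the threshold. With 1 library left out that difference ran from -1.02, without replicate 1 of the 5 mM group, to -0.45, without replicate 3 of that group. Only the first of these passed, with a lone library left in the 5 mM group. The responses to 50 mM were 0.52 from 5 mM (SE 0.25, adjusted p = 0.562, limma) and -0.09 from 25 mM (SE 0.19, adjusted p = 0.881, limma), and the libraries of each pair of groups overlapped.

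PTGES2 (Entrez 80142, chr9:128120693-128128440), the membrane-associated synthase made at a steady level, lay between 47.8 and 57.9 RPKM in all 8 libraries. PTGES3 (Entrez 10728, chr12:56663349-56688284), known also as p23, is a co-chaperone of HSP90 as well as a cytosolic prostaglandin E synthase, and lay between 427.8 and 494.0 RPKM. Neither passed the test in any of the 5 comparisons, and their limma log2 differences ran from -0.09 to 0.16. Between the groups at 50 mM both lay somewhat higher in cells from 25 mM, and neither was called. PTGES2 was at 52.8 and 57.8 against 49.3 and 49.6 RPKM (adjusted p = 0.226, limma). PTGES3 was at 463.6 and 494.0 against 427.8 and 431.6 RPKM. There the PTGES3 value was 0.16 (SE 0.06, adjusted p = 0.0726, limma), and it passed with quantile normalization at 0.19 (adjusted p = 0.0205). RefSeq lists 5 PTGES3 pseudogenes, none of which has a row in the tables, so reads of near-identical copies may be counted in PTGES3 or lost from it. The other 2 enzymes were barely detected. PTGIS (Entrez 5740, chr20:49503874-49568137), the prostacyclin synthase, had 0 and 5 reads at 5 mM, 2 and 3 reads at 5 to 50 mM, 0 reads in both 25 mM libraries and 1 and 0 reads at 25 to 50 mM. HPGD (Entrez 3248, chr4:174490175-174522893), the catabolic 15-hydroxyprostaglandin dehydrogenase, had 3 and 2 reads at 5 mM, 0 and 1 at 5 to 50 mM and 0 in all 4 libraries kept at 25 mM. At this depth a level below 0.0729 to 0.0927 RPKM for PTGIS, or below 0.137 to 0.174 RPKM for HPGD, would give fewer than 3 reads, and no difference between groups could be tested for either gene.

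The receptors were present in every library at similar low levels, and their order changed with maintenance glucose. PTGER2 (Entrez 5732, chr14:52314312-52328598), the EP2 receptor, was the only member called higher in cells kept at 25 mM. It measured 3.19 and 4.82 RPKM at 5 mM, 4.10 and 4.56 RPKM at 5 to 50 mM, 6.06 and 6.02 RPKM at 25 mM and 7.37 and 6.95 RPKM at 25 to 50 mM. No library kept at 25 mM overlapped with one kept at 5 mM. The mean was 1.51-fold higher at 25 mM than at 5 mM (log2 0.51, SE 0.15, adjusted p = 0.0273, limma) and 1.66-fold higher between the groups at 50 mM (log2 0.62, SE 0.15, adjusted p = 0.0122, limma). The first call was lost without replicate 1 or 3 of the 25 mM group (adjusted p = 0.113 and 0.102), without replicate 1 of the 5 mM group (log2 0.27, adjusted p = 0.0696) and without the filter (adjusted p = 0.0549). The second was lost without replicate 2 of the 25 to 50 mM group (adjusted p = 0.0580) and without replicate 1 of the 5 to 50 mM group (adjusted p = 0.0779).

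PTGER4 (Entrez 5734, chr5:40679915-40746800), the EP4 receptor, ran the other way. It measured 5.57 and 6.90 RPKM at 5 mM, 6.80 and 7.69 RPKM at 5 to 50 mM, 4.58 and 5.22 RPKM at 25 mM and 4.22 and 4.31 RPKM at 25 to 50 mM. Cells from 5 mM had 1.70-fold more than cells from 25 mM at 50 mM (log2 -0.65, SE 0.12, adjusted p = 0.00326, limma), and -0.43 with quantile normalization (adjusted p = 0.0149). Between the maintenance groups the log2 difference was -0.29 (SE 0.12, adjusted p = 0.0817, limma), and it ran from -0.42 to -0.16 with 1 library left out. It passed only without replicate 1 of the 5 mM group (-0.42), which leaves a lone library in that group. PTGFR (Entrez 5737, chr1:78490974-78540701), the prostaglandin F2α receptor, measured 4.03 and 4.79 RPKM at 5 mM, 4.47 and 3.70 RPKM at 5 to 50 mM, 2.96 and 3.39 RPKM at 25 mM and 2.72 and 2.43 RPKM at 25 to 50 mM. The 5 mM mean was 1.39 times the 25 mM mean (log2 -0.37, SE 0.12, adjusted p = 0.0410, limma), and the ratio at 50 mM was 1.58 (log2 -0.50, SE 0.12, adjusted p = 0.0118, limma). With quantile normalization neither PTGFR difference passed (-0.18, adjusted p = 0.222, and -0.24, adjusted p = 0.110). The maintenance call was also lost without the filter (adjusted p = 0.0662) or without replicate 1 or 3 of the 25 mM group or replicate 3 of the 5 mM group (adjusted p = 0.199, 0.0736 and 0.160). The call at 50 mM was lost without replicate 3 of the 25 to 50 mM group (adjusted p = 0.0709) or replicate 1 of the 5 to 50 mM group (adjusted p = 0.0878).

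None of the receptors passed the test for the rise to 50 mM. From 25 mM, the PTGER2 libraries lay above those before the rise (log2 0.21, SE 0.09, adjusted p = 0.532, limma). The PTGER4 and PTGFR libraries lay below theirs, with log2 values of -0.16 (SE 0.10, adjusted p = 0.612, limma) and -0.22 (SE 0.11, adjusted p = 0.559, limma). From 5 mM the corresponding values were 0.11 for PTGER2 (SE 0.18, adjusted p = 0.897), 0.19 for PTGER4 (SE 0.13, adjusted p = 0.682) and -0.09 for PTGFR (SE 0.13, adjusted p = 0.876). The difference between the responses was 0.35 for PTGER4 (SE 0.16, adjusted p = 0.860, limma) and did not pass for any of the 3 receptors.

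Counted together, 8 of the 10 genes could be tested in the comparisons over all 8 libraries. Between the maintenance groups, 1 of the 8 was higher at 25 mM (PTGER2) and 3 were lower (PTGS1, PTGS2 and PTGFR), where 17.0% of 11941 genes were higher and 22.1% lower, 39.1% in all. Between the groups at 50 mM, 1 was higher (PTGER2) and 5 were lower (PTGS1, PTGS2, PTGES, PTGER4 and PTGFR), where 18.1% of all genes were higher and 23.3% lower, 41.4% in all. These counts hold the cyclooxygenases, which passed the filter only through the cultures in which they are high, and so do not describe all 10 members. The median log2 difference of the 8 was -0.33 and -0.57, beside -0.004 and -0.023 for all genes. With 8 genes, 4 called is near the background share of 39.1%, and the 6 called at 50 mM stand beside 41.4%. Voom on reads called the same genes in each comparison. With quantile normalization the split of all called genes turned from 43.5% to 56.1% higher at 25 mM, and from 43.8% to 60.1% higher between the groups at 50 mM, without a member changing direction.

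The rises called no member. From 5 to 50 mM 0 of 8 passed, with 1 (PTGS2, higher) at an unadjusted p under 0.05 in limma, and 0 passed with voom. The background was 0.329% of 11849 genes adjusted and 10.5% unadjusted. From 25 to 50 mM 0 of 6 passed, with 1 (PTGER2, higher) unadjusted in limma and 0 passed with voom, against 0.00876% adjusted and 9.25% unadjusted of 11422 genes. For the difference between the responses 0 of 8 passed in limma and in voom, with 1 (PTGS2, higher) unadjusted in limma, against 0.0251% adjusted and 6.04% unadjusted of 11941 genes. A count of 1 in 6 or 8 is thus close to the unadjusted background.

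**Figure D2:**
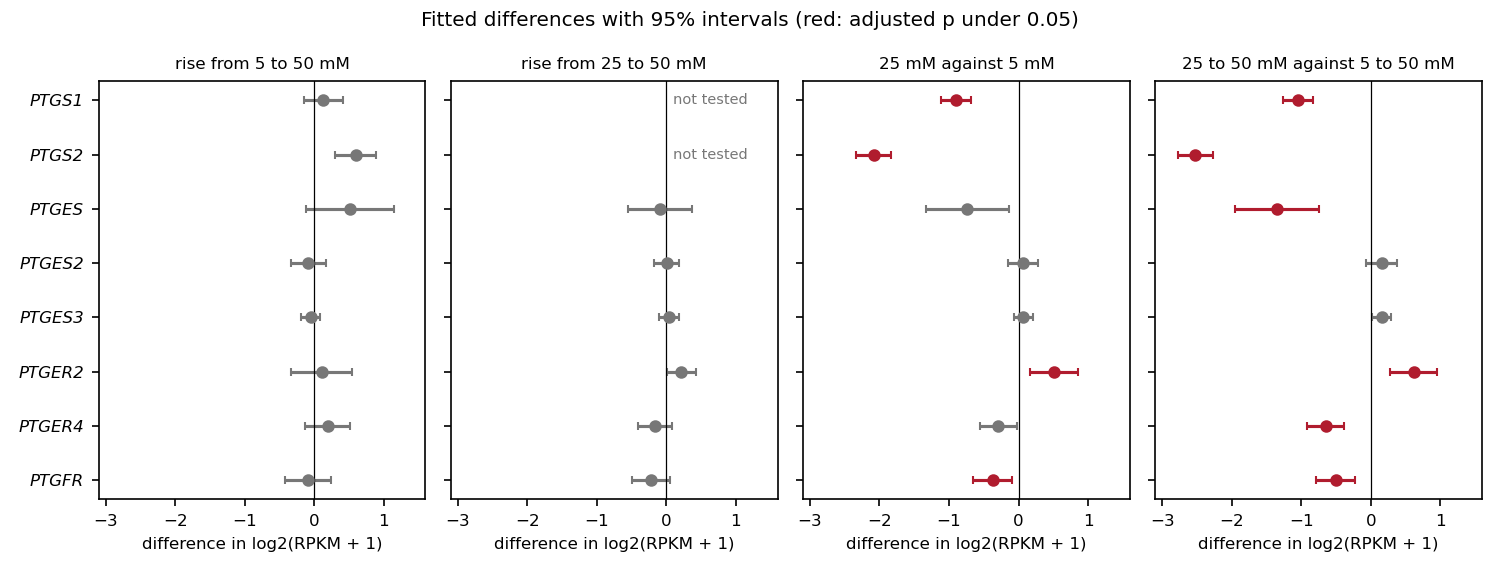
Log2 differences of log2(RPKM + 1) with 95% intervals from limma, for the 8 members that could be tested, in the rises and in the comparisons of maintenance glucose (4 panels). Red points passed the adjusted threshold of 0.05 and grey points did not. PTGS2 reaches -2.08 and -2.52 in the comparisons of maintenance glucose and 0.59 in the rise from 5 mM.

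Per kilobase of gene, the order of levels at 5 mM was PTGES3 (445.8 RPKM), PTGES2 (52.9), PTGER4 (6.23), PTGES (4.90), PTGS2 (4.41), PTGFR (4.41), PTGER2 (4.003) and PTGS1 (0.944). From PTGER4 to PTGER2 each neighbour in this order overlapped with the next over the 2 libraries. At 25 mM the order was PTGES3 (467.6 RPKM), PTGES2 (55.2), PTGER2 (6.04), PTGER4 (4.90), PTGFR (3.18), PTGES (2.51), PTGS2 (0.276) and PTGS1 (0.041). Here PTGFR and PTGES overlapped and no other neighbours did. The prostaglandin E synthases and the receptors were thus read by more than 20 reads in every library, while in cells kept at 25 mM PTGS2 had 12 to 20 reads and PTGS1 1 or 2.

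Other genes of eicosanoid metabolism followed a mixed pattern. Of 40 listed enzymes, carriers and receptors, 38 were in the tables and 20 could be tested over all 8 libraries. At 25 mM against 5 mM, 2 were higher and 8 lower, and between the groups at 50 mM, 3 were higher and 9 lower, with medians of -0.28 and -0.27. Over all genes 17.0% were higher and 22.1% lower in the first comparison and 18.1% and 23.3% in the second, with medians of -0.004 and -0.023. PLA2G4A, the cytosolic phospholipase that supplies arachidonic acid to the cyclooxygenases, averaged 20.7 ± 0.314 RPKM in the 5 mM group and 21.6 ± 0.720 in the 5 to 50 mM group (SD, n = 2). The corresponding groups from 25 mM averaged 7.44 ± 0.452 and 7.34 ± 0.435. The ratios were 2.78 and 2.94 (adjusted p = 1.40e-05 and 8.23e-06, limma), and the groups did not overlap. PLA2G4C, another phospholipase of the group, was 2.14-fold and 1.93-fold higher in cells from 5 mM. AKR1B1, an aldose reductase that reduces glucose to sorbitol and can make prostaglandin F2α, was the highest of the list in cells kept at 5 mM, with 592.2 ± 47.4 RPKM at 5 mM, 1092 ± 24.7 RPKM at 5 to 50 mM, 143.5 ± 7.75 RPKM at 25 mM and 154.5 ± 7.12 RPKM at 25 to 50 mM. It was 4.13-fold and 7.07-fold higher in cells from 5 mM and was the only gene of the list called by limma from 5 to 50 mM (log2 0.88, adjusted p = 0.0269, limma). That call was lost when either 5 to 50 mM library was left out (log2 0.86 and 0.91). It was also lost in limma without the filter (adjusted p = 0.114), without trend (0.0876) and in the joint fit with a replicate block (0.0669). AKR1C3, an aldo-keto reductase that also makes prostaglandin F2α, was 2.14-fold and 3.30-fold higher in cells from 5 mM. It averaged 16.8 ± 2.11 RPKM before and 30.2 ± 0.00342 after the rise from 5 to 50 mM, which voom called together with AKR1B1 and limma did not.

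PTGIR, the prostacyclin receptor, was 6.11-fold and 7.16-fold higher in cells from 5 mM, at 1.47 ± 0.774 RPKM against 0.240 ± 0.0257 RPKM in the maintenance groups (adjusted p = 0.00983 and 0.00473, limma). The first of these calls was lost without either 25 mM library (adjusted p = 0.0521 and 0.0574) and with quantile normalization (adjusted p = 0.0962). PTGIR reached 1 RPKM only in libraries kept at 5 mM and so passed the filter only through the cells in which it is high. The counts of lower genes in this list include it. ABCC4, a transporter that exports prostaglandins, went the other way, 12.6 ± 0.549 RPKM at 5 mM against 18.6 ± 0.940 RPKM at 25 mM (adjusted p = 0.000947, limma). ZADH2, which encodes a prostaglandin reductase, was 1.44-fold and 1.55-fold higher in cells from 5 mM. The remaining calls were small: ALOX12 and PLA2G6 were lower in both comparisons (PLA2G6 at 50 mM was 0.0671 higher with quantile normalization), TBXA2R was higher at 25 mM, and at 50 mM PTGDS was lower and PTGFRN and PTGR1 were higher in cells from 25 mM. Each of these calls was lost when a single library was left out, with the highest adjusted p at 25 mM against 5 mM without 25 mM replicate 1 for ALOX12 (0.0950) and PLA2G6 (0.143) and without 25 mM replicate 3 for TBXA2R (0.208). At 50 mM the highest came without 5 to 50 mM replicate 1 for ALOX12 (0.151), PTGDS (0.168) and PTGFRN (0.0726), and without replicate 2 or 3 of the 25 to 50 mM group for PLA2G6 (0.1695) and PTGR1 (0.199). No gene of the list passed from 25 to 50 mM or for the difference between the responses, in limma or in voom, with 0 and 2 at an unadjusted p under 0.05 in limma. PLA2G2A, HPGDS and the prostaglandin importer SLCO2A1 were at 0 in all 8 libraries, and the receptors PTGER1 and PTGER3 reached at most 0.496 and 0.176 RPKM.

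**Figure D3:**
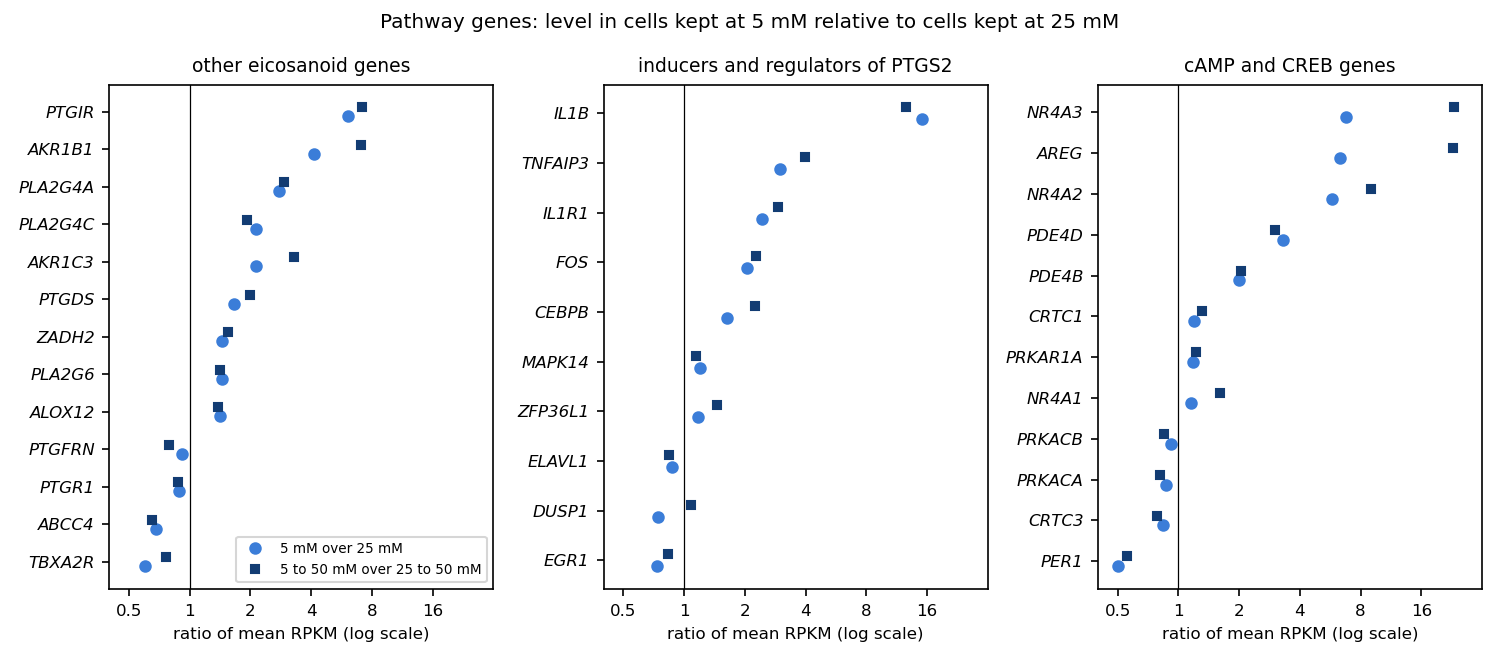
Ratio of mean RPKM in cells kept at 5 mM to cells kept at 25 mM (horizontal axis, log scale) for the named genes of the pathway lists, 1 panel per list. Circles compare the maintenance groups and squares the groups at 50 mM. IL1B lies at 15.1 and 12.6 and PLA2G4A at 2.78 and 2.94, to the right of 1, while ABCC4 and PER1 lie to the left.

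A list of 21 known inducers and regulators of PTGS2 was all present in the tables, and 18 could be tested. At 25 mM against 5 mM, 3 were higher and 5 lower, and between the groups at 50 mM, 1 was higher and 5 lower, with medians of -0.01 and -0.15. The 8 and 6 called of 18 stand beside 39.1% and 41.4% of all genes (medians -0.004 and -0.023), so the list's share is near the background or below it. The widest gap was that of IL1B, the cytokine interleukin-1 beta and a classic inducer of PTGS2: 143.9 ± 2.60 RPKM at 5 mM, 139.6 ± 6.82 RPKM at 5 to 50 mM, 9.55 ± 1.72 RPKM at 25 mM and 11.1 ± 0.0572 RPKM at 25 to 50 mM (SD, n = 2). It was 15.1-fold and 12.6-fold higher in cells from 5 mM (adjusted p = 6.24e-07 and 7.96e-07, limma). IL1R1, its receptor, was 2.45-fold and 2.92-fold higher (adjusted p = 2.06e-05 and 7.34e-06, limma). TNFAIP3, a target and brake of NF-kB signalling, was 2.996-fold and 3.997-fold higher (adjusted p = 1.68e-05 and 4.59e-06, limma). FOS was lower at 25 mM in both comparisons and MAPK14 and ZFP36L1 in 1 comparison each, while DUSP1, EGR1 and ELAVL1 were higher at 25 mM, ELAVL1 also at 50 mM. At 25 mM against 5 mM the calls of FOS (adjusted p = 0.0586) and MAPK14 (0.128) were lost without 25 mM replicate 1 and those of EGR1 (0.198) and ELAVL1 (0.0583) without 25 mM replicate 3, and at 50 mM FOS (0.0508) and ZFP36L1 (0.0502) were lost without 5 to 50 mM replicate 1. IL1A stayed between 0.196 and 0.840 RPKM, and TNF was at most 0.00792 RPKM. From 5 to 50 mM DUSP1, a phosphatase that turns off MAP kinases, rose from 41.4 ± 2.08 to 67.8 ± 2.81 RPKM (log2 0.70, adjusted p = 0.0411, limma). The DUSP1 call was lost without either 5 to 50 mM library (log2 0.66 and 0.74). It was also lost in limma without the filter (adjusted p = 0.128), without trend (0.0877) and in the joint fit with a replicate block (0.174). No other gene of the list passed for a rise or for the difference between the responses in limma. At an unadjusted p under 0.05 in limma, 3 were higher from 5 to 50 mM, 3 lower from 25 to 50 mM and 2 higher for the difference. The limma background was 10.5%, 9.25% and 6.04% of all genes. In voom the unadjusted counts were 3 higher, 4 lower and 3 higher. After adjustment voom called DUSP1 from 5 to 50 mM and no gene from 25 to 50 mM or for the difference.

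The EP2 and EP4 receptors act through cyclic AMP, and a list of 16 genes of that pathway and of its transcription factor CREB was also counted, 14 of them testable over all 8 libraries. At 25 mM, 2 were higher and 6 lower than at 5 mM, and between the groups at 50 mM 3 were higher and 7 lower, with medians of -0.17 and -0.32, beside 39.1% and 41.4% of all genes called and medians of -0.004 and -0.023. The genes lower at 25 mM included the immediate-early genes NR4A2 and NR4A3 and the growth factor gene AREG. These 3 and PDE4D reached 1 RPKM only in libraries kept at 5 mM (NR4A3 only at 5 to 50 mM), so they passed the filter only through the cells in which they are high and had to differ. The counts and medians above include all of them among the lower genes, and so do not describe the whole list. NR4A2 averaged 1.13 ± 0.179 RPKM in the 5 mM group and 1.92 ± 0.280 in the 5 to 50 mM group, against 0.197 ± 0.0172 and 0.213 ± 0.0134 in the corresponding cells from 25 mM. AREG averaged 1.70 ± 0.323 RPKM at 5 mM against 0.269 ± 0.0381 at 25 mM, a ratio of 6.30, and NR4A3 averaged 0.882 ± 0.127 against 0.131 ± 0.0281, a ratio of 6.75. PDE4B, a phosphodiesterase that degrades cyclic AMP, was 2.01-fold and 2.05-fold higher in cells from 5 mM (adjusted p = 0.000250 and 0.000213, limma). PER1, a CREB-responsive clock gene, was higher in cells from 25 mM, at 6.37 ± 0.290 RPKM against 3.21 ± 0.482 RPKM (adjusted p = 0.000580, limma). PRKACA, a catalytic subunit of protein kinase A, was also higher at 25 mM, and PRKAR1A, a regulatory subunit, lower. Their calls at 25 mM against 5 mM were lost without 25 mM replicate 3 for PRKACA (adjusted p = 0.112) and without 25 mM replicate 1 for PRKAR1A (0.0548), and that of NR4A3 with quantile normalization (0.205). PDE4D, a phosphodiesterase like PDE4B, was 3.29-fold and 3.03-fold higher in cells from 5 mM and lost both calls with quantile normalization (adjusted p = 0.0972 and 0.218). At 50 mM NR4A1 was lower in cells from 25 mM, a call lost with quantile normalization (adjusted p = 0.0743), and CRTC3, a CREB coactivator, was higher, a call lost without 25 to 50 mM replicate 3 or 5 to 50 mM replicate 1 (adjusted p = 0.106 and 0.118). No gene of the list passed for either rise or for the difference between them, in limma or voom, with 2, 0 and 2 at an unadjusted p under 0.05 in limma.

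The genes whose pattern over the 8 libraries was most like that of PTGS2 were found among the 9611 genes that averaged 5 RPKM or more, by the Pearson correlation of log2(RPKM + 1). They were IL6 (r = 0.9986), HIST1H2BD (0.9982), TINAGL1 (0.998), SH3KBP1 (0.998) and TUBA4A (0.9972). IL6, the cytokine interleukin-6, stood at 48.3 RPKM at 5 mM, 85.9 RPKM at 5 to 50 mM, 7.73 RPKM at 25 mM and 7.71 RPKM at 25 to 50 mM. TINAGL1, an extracellular matrix glycoprotein gene, stood at 7.70, 12.4, 1.43 and 1.65 RPKM in the same order. HIST1H2BD has near-identical histone copies, so its reads may be shared. The correlations describe 8 libraries in 4 groups whose main split is the maintenance glucose, and they carry no test.

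**Figure D4:**
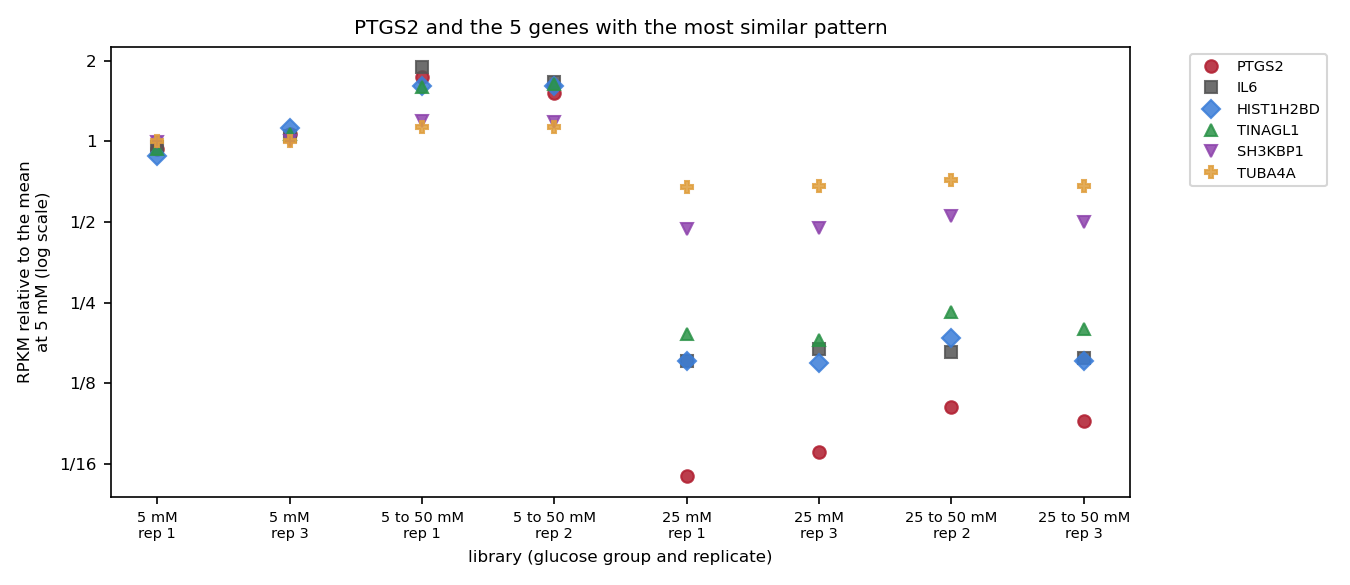
RPKM of PTGS2 and of the 5 genes with the most similar pattern, each relative to its own mean at 5 mM (vertical axis, log scale), in the 8 libraries (horizontal axis, by group and replicate). All 6 genes are highest in the 5 to 50 mM libraries and lowest in those kept at 25 mM, and the drop is larger for PTGS2 (a ratio of 15.99) than for TUBA4A (1.47).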

How the data were processed

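The authors deposited 2 tables of RPKM values, 1 for each maintenance glucose, with a column per library. The submitters' processing notes list STAR and hg38, and the counting tool and annotation are not given in the sources used here. The deposited RPKM values of all 16297 genes above 0 turned into whole reads within 0.01, which gave library totals and gene lengths. The highest upper quartile was 1.05 times the lowest, and the tables were compared directly. Values were fitted as log2(RPKM + 1) with limma 3.58.1 in R 4.3.3 (trend, two-sided), for genes that reached 1 RPKM in 2 or more fitted libraries, with Benjamini-Hochberg adjustment over all genes and a threshold of 0.05. Each rise was fitted on its own 4 libraries and the other 3 comparisons on all 8. Intervals of read ratios are exact conditional binomial (95%) and cover counting error only. The fits were also run on simulated counts, in which every gene had the same small spread beyond counting error and no library stood apart. That run does not show how the fits behave on libraries as uneven as these or on the lowest genes. Alternatives were a pseudocount of 0.1, no filter, a filter on a mean of 5 RPKM, quantile normalization, no trend, voom on reads, a joint fit, a replicate block and leaving out each library, where the lone library of a group is assumed to vary like the other groups.

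Named are all 10 members, every listed pathway gene called in any comparison, and up to 6 genes a list with the widest range of group means at a mean of at least 5 RPKM, of which the calls and part of the latter are printed. The members and lists were chosen with earlier results of these data known. Coordinates and promoters are from RefSeq on GRCh38.p14, matched by symbol.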

Additional observations from a re-analysis of the deposited data

How the results depend on the processing

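Of the members' results under the alternatives, 404 kept direction and side of the threshold, 16 lost a call, 4 gained one and 16 turned direction without being called. PTGS2 and PTGS1 kept their calls against maintenance glucose in every alternative in which they could be tested. Neither could be tested with the filter on a mean of 5 RPKM, nor PTGS1 at 50 mM without either 5 to 50 mM library. Both genes passed the main filter only through cultures kept at 5 mM, in which they are high. Most alternatives kept that filter, so the kept calls are a limited check. Low read numbers limit PTGS1, PTGIS and HPGD, and 2 technical replicates a group limit every test. With IL6 as the first of the genes like PTGS2, its r was 0.9941 with a pseudocount of 0.1 and 0.9985 with quantile normalization, settings chosen after seeing the data.

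Counts over all genes moved most in the rises. From 5 to 50 mM (39 calls) there were 0 without the filter, 61 with quantile normalization, 0 without trend, 130 in a joint fit and 0 in that fit with a replicate block, and 0 to 805 when a library was left out, with 0 to 1 member called. The 805 came without replicate 1 and 560 without replicate 3 of the 5 mM group. Without 5 to 50 mM replicates 1 and 2 there were 4 and 0. From 25 to 50 mM (1 call) the counts were 0 without the filter, 2 with quantile normalization, 0 without trend, 7 with voom, 4 in the joint fit, 0 with the replicate block and 0 to 777 with a library left out, 777 without 25 to 50 mM replicate 2 and 3 without its replicate 3. The difference between the responses (3 calls) gave 0 with a pseudocount of 0.1, 1 without the filter, 0 at a mean of at least 5 RPKM, 1 without trend, 0 with voom, 0 with the replicate block and 0 to 6 with a library left out, 6 of them without 25 mM replicate 1. The cause was not tested. At 25 mM against 5 mM 4 members were called, 1 at a mean of at least 5 RPKM, where fewer members are tested, and 2 to 5 with a library left out, with 3024 to 4769 genes in all and the lowest count without 25 mM replicate 1. At 50 mM 6 were called, 2 at that mean and 3 to 5 with a library left out, with 3177 to 3870 genes in all and the lowest counts without 5 to 50 mM replicate 1 (3177) or 2 (3242).

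Whether the replicate numbers pair the samples could not be decided. Over 11067 genes, deviations of same-numbered libraries correlated at 0.288, -0.241, -0.388 and -0.411. Only the first, 25 mM with 5 mM, compared groups that share both numbers. In the others the groups share 1 number, so each deviation mixes in an unmatched library. With the replicate block PTGFR at 25 mM against 5 mM had an adjusted p of 0.0987 and PTGER2 at 50 mM one of 0.0571, and no other member changed its side of the threshold in those comparisons.

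Uncalled values turned direction with a library left out, over these ranges. From 5 to 50 mM, PTGES2 ran from -0.224 to 0.0474, PTGER2 from -0.128 to 0.345 and PTGFR from -0.1995 to 0.0174. From 25 to 50 mM, PTGES ran from -0.295 to 0.1095, PTGES2 from -0.0627 to 0.0686 and PTGES3 from -0.032 to 0.1015, and with the replicate block PTGES2 was -0.0396 and PTGES3 -0.0098. For the difference between the responses, PTGES2 ran from -0.227 to 0.0444 and PTGER2 from -0.341 to 0.132. At 25 mM against 5 mM, PTGES2 ran from -0.0706 to 0.2008. At 50 mM, the called PLA2G6 was 0.0671 with quantile normalization.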
